A study of Mus musculus with 4 samples.

Results

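Basement membrane genes were examined in tumor cells sorted from subcutaneous MC38 tumors of mice under PD-1 blockade. The set holds 31 genes, chosen by name for laminin chains, nidogens, collagen IV chains and the proteins bound to them, out of 53379 genes in the count files. Of the 31, 19 had enough reads to be tested between groups and 12 did not. Each tumor grew in a C57BL/6 mouse from 50000 inoculated MC38 cells carrying GFP, and every mouse, in both groups, received 100 µg of anti-PD-1 antibody, a dose the submitters call sub-optimal, on days 12, 15, 18 and 22. MC38 is a mouse colon adenocarcinoma line, and PD-1 is an inhibitory receptor of T cells. The responder group had 2 libraries and the non-responder group 2, and no untreated tumors are among these libraries. All values below are given for replicate 1 and then replicate 2 of a group. The labels give neither the way response was scored nor the mouse behind each library, so the p-values rest on a spread that may be purely technical.

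A basement membrane is a thin sheet of matrix on which epithelia, vessels, muscle and fat rest. Laminins are trimers of an alpha, a beta and a gamma chain that assemble into a sheet at the cell surface. The beta and gamma chains pair first inside the cell, and an alpha chain is needed for secretion. Collagen IV trimers form a second, covalently crosslinked network, nidogens and perlecan bridge the networks, and integrins and dystroglycan anchor them to cells. In tumors the basement membrane is made by malignant cells as well as by vessels, pericytes and fibroblasts, and endostatin, a fragment that restrains vessel growth, is cut from the collagen encoded by Col18a1.

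Sorted MC38 cells had the transcripts of 1 collagen IV gene pair, Col4a1 and Col4a2, and of 1 main laminin beta and gamma chain, Lamb1 and Lamc1. Among the laminin alpha chains Lama4 led, at a lower level than Lamb1 and Lamc1, and the others were scarce. In responder against non-responder libraries Col4a1, Col4a2, Lamb1 and Lamc1 differed little. The largest difference among the 19 tested genes was in Nid2, 2.44-fold lower in responder libraries, and it did not pass the test over all genes. Total counts per library were 18447041 to 21754063. Epithelial markers, among them the keratin genes Krt8, Krt18 and Krt19, summed over 16 genes to 5.26 and 4.30 CPM (reads scaled to a common library size) in responder libraries and to 3.39 and 5.57 CPM in non-responder libraries, and Krt20 and Cldn3 had no read. The defining markers of an epithelium were thus nearly absent from cells labelled adenocarcinoma.

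The collagen IV genes lie head to head in pairs, and their start regions are shown because the pairs were used so differently. Per the annotation in the count files, the Col4a1 and Col4a2 start sites lie 21 bases apart on chromosome 8 and their first exons overlap by 22 bases on opposite strands, which strand-specific counting keeps apart. Those of Col4a4 and Col4a3 lie 72 bases apart on chromosome 1, so the Col4a4 window also covers the Col4a3 start, and those of Col4a6 and Col4a5 lie 1309 bases apart on the X chromosome. The windows below are from RefSeq on GRCm38.p6, the same build as the counts (mm10), and run from 250 bases before to 50 bases after the RefSeq start, 5′ to 3′ on the gene's strand. Capitals mark GC boxes (GGGCGG or its reverse complement CCGCCC) and CCAAT boxes (CCAAT or ATTGG), which do not overlap each other here.
Col4a1, chr8:11312777-11313076, minus strand: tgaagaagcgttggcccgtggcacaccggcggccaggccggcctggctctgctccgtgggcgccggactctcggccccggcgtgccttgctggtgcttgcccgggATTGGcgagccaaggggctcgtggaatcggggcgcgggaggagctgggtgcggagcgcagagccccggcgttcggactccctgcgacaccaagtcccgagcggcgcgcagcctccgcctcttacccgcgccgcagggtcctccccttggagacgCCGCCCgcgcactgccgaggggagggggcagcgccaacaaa
Col4a2, chr8:11312555-11312854, plus strand: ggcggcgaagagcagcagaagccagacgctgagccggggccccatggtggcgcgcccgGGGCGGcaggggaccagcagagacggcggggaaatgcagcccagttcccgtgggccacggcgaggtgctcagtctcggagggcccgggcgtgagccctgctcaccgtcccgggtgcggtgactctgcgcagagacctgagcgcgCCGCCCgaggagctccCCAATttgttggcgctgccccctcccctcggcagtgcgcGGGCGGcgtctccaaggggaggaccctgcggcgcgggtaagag
Col4a4, chr1:82586800-82587099, minus strand: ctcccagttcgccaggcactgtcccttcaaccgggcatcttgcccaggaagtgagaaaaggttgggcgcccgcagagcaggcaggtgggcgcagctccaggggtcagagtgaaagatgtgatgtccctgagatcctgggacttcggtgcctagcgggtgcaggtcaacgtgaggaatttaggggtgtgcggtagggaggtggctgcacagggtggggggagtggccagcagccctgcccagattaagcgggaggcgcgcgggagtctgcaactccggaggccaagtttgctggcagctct
Col4a5, chrX:141475169-141475468, plus strand: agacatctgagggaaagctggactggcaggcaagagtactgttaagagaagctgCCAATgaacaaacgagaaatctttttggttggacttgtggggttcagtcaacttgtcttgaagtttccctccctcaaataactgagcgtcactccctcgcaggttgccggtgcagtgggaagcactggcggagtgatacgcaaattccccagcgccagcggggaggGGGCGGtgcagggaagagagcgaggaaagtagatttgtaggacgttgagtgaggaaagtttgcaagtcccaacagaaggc
Col4a6, chrX:141474027-141474326, minus strand: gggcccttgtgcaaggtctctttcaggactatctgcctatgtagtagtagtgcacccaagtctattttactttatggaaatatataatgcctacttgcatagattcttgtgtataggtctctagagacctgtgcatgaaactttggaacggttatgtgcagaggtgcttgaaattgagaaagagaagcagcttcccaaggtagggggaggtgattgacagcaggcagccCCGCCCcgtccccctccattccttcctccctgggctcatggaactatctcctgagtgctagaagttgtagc
The Col4a1 and Col4a2 windows share 78 bases, read from opposite strands. They hold 37 and 33 CG dinucleotides, against 14 in the Col4a4 window, 11 in that of Col4a5 and 3 in that of Col4a6, and a median of 7 over 32851 promoter windows. A GC box is present in 35.7% of all windows and a CCAAT box in 37.4%. None of the 5 windows holds TATAAA on either strand, which 13.6% of all windows do. These matches and CG counts describe letters, not binding, and their relation to the level of any gene was not tested. RefSeq windows were at hand for 21 of the 31 genes.

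Collagen IV had the highest level among the structural chains. In TPM, a scale that divides by exon length as well and so lets genes be compared, Col4a1, which encodes the alpha 1 chain, had 594 and 632 TPM in responder libraries and 546 and 782 TPM in non-responder libraries. Col4a2, the partner chain of the common trimer, had 487 and 480 TPM in responder libraries and 449 and 601 TPM in non-responder libraries. The ratio of the Col4a1 to the Col4a2 level lay between 1.22 and 1.32 in the 4 libraries. The trimer found in most tissues holds a pair of alpha 1 chains to each alpha 2 chain. Col4a5, a chain of specialised membranes such as that of the kidney glomerulus, had 6.51 and 7.29 TPM in responder libraries and 6.44 and 11.9 TPM in non-responder libraries, so that Col4a1 stood 65.7 to 91.4 times above it. Its neighbour Col4a6 and the glomerular genes Col4a3 and Col4a4 had at most 5 reads in any library. Together Col4a1 and Col4a2 made up nearly all of the collagen IV signal, at mean shares of 55.4% and 43.9%.

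Laminin chains were unequal in level. Lamc1, the common gamma chain, had 383 and 294 TPM in responder libraries and 416 and 394 TPM in non-responder libraries. Lamb1, its usual beta partner, had 231 and 211 TPM in responder libraries and 244 and 260 TPM in non-responder libraries. The alternative beta chain Lamb2, typical of vessels, synapses and kidney, had 31.3 and 35.1 TPM in responder libraries and 18.8 and 41.4 TPM in non-responder libraries. Lamb1 made up 88.2% of the beta signal on average and Lamb2 the rest but for Lamb3, a chain of skin and other epithelia, which had at most 4 reads. Lamc3 had at most 1 read.

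Among the alpha chains Lama4, known from vessel walls, muscle and fat, made up 97.4% to 98.7% of the signal in every library. Its level was 32.0 and 26.2 TPM in responder libraries, against 25.9 and 69.7 TPM in non-responder libraries. In TPM the non-responder libraries lay on either side of the responder values, replicate 1 only just below them. In CPM responder replicate 2 was the lowest, at 87.2 CPM against 88.4 CPM in non-responder replicate 1. By TPM, Lamc1 exceeded Lama4 by 12.0 and 11.2 times in responder libraries and by 16.1 and 5.65 times in non-responder libraries. The alpha chains of epithelial basement membranes were scarce. Lama5, the main alpha chain of adult epithelia, had 5 and 8 reads in responder libraries and 5 and 15 in non-responder libraries. Lama1, an embryonic and early epithelial chain, had 8 and 4 reads in responder libraries and 8 and 7 in non-responder libraries. Lama2, the chain of muscle and nerve, had 2 reads in each responder library and 3 and 13 in non-responder libraries. Lama3, the chain of skin anchoring complexes, was tested at a mean of 0.945 ± 0.0726 CPM in responder and 1.28 ± 0.1 CPM in non-responder libraries (SD, n = 2 each). Levels per length use the summed exon length of each gene, which overstates the length of genes with short isoforms, and RNA was captured by its poly(A) tail, so levels of long transcripts may be understated.

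**Figure D1:**
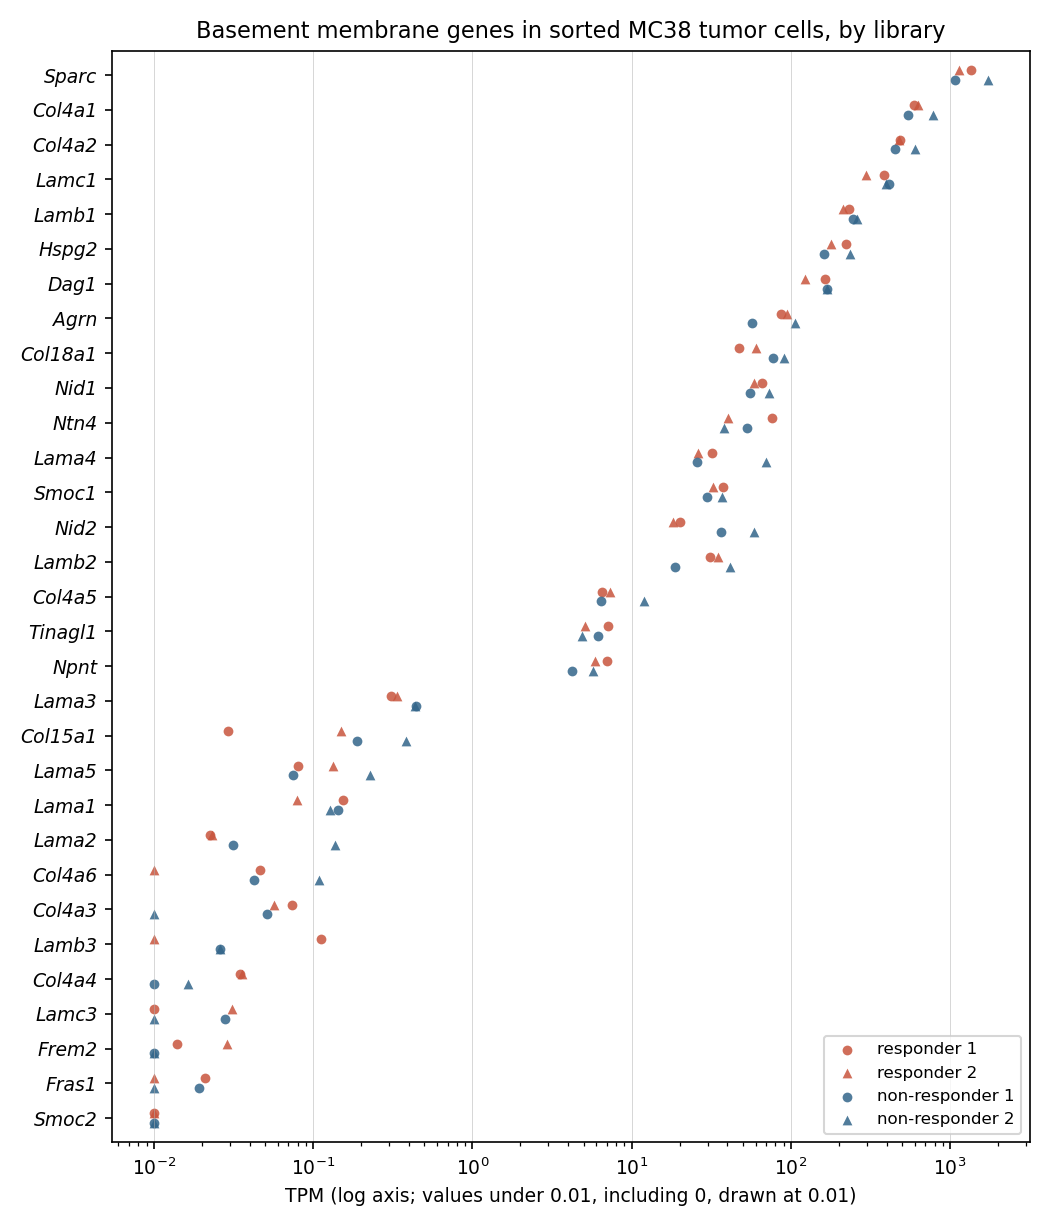
Level of each of the 31 genes in each library, in TPM on a log axis, with genes ordered by their mean; circles are replicate 1 and triangles replicate 2. Sparc, Col4a1 and Col4a2 lead at means of 1325, 638 and 504 TPM, and the 12 untested genes lie at or below 0.382 TPM.

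**Figure D2:**
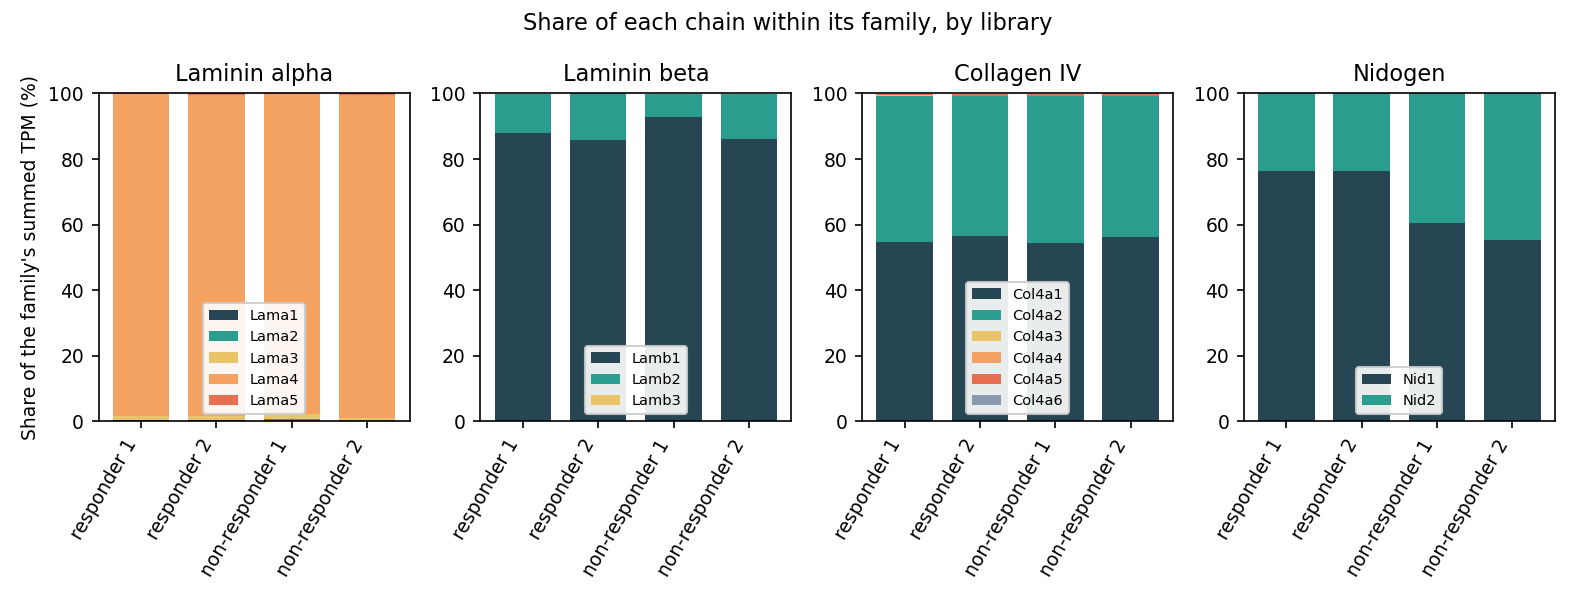
Share of each chain in the summed TPM of its family, in percent, for each library. Lama4, Lamb1 and the pair Col4a1 and Col4a2 dominate in all 4 libraries, while Nid2 takes 23.6% of the nidogen signal in both responder libraries, against 39.6% and 44.6% in non-responder libraries.

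The linkers and proteoglycans were present at middle to high levels. Hspg2, which encodes perlecan, a large heparan sulfate proteoglycan that binds laminin and collagen IV, had 221 and 177 TPM in responder libraries and 161 and 235 TPM in non-responder libraries. Agrn, or agrin, a related proteoglycan that binds laminin and dystroglycan, had 86.4 and 95.1 TPM in responder libraries and 57.1 and 105 TPM in non-responder libraries. Dag1, the gene of the laminin receptor dystroglycan, had 163 and 122 TPM in responder libraries and 168 and 170 TPM in non-responder libraries. Sparc, a collagen-binding glycoprotein that associates with collagen IV, was the most abundant of the set, at 1362 and 1131 TPM in responder libraries and 1077 and 1731 TPM in non-responder libraries. Its relative Smoc1 had 37.7 and 32.3 TPM in responder libraries and 29.8 and 36.7 TPM in non-responder libraries. Smoc2 had no read in any library, which allows up to 0.149 and 0.157 CPM in responder libraries and 0.145 and 0.135 CPM in non-responder libraries (3 reads, counting error only). All 31 genes together took 0.386% and 0.343% of the total TPM in responder libraries and 0.343% and 0.471% in non-responder libraries.

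The comparison of responder with non-responder libraries asks how the tumor cells of tumors with either outcome differ, and it was tested with edgeR's quasi-likelihood test on the counts with adjustment over 13792 genes. No basement membrane gene passed an adjusted p of 0.05, nor did any gene in the table (0.0% called). At an unadjusted p under 0.05, 2 of the 19 tested members were lower and 0 were higher, against 3.63% and 2.57% of all genes tested. Of the 19, 12 had a log2 fold change below 0, as did 51.1% of all genes, and the median was -0.10, against -0.0071 over all genes. The members that passed the filter on low counts are not the whole set, so these counts describe them only. The median of the members was 0.075 without non-responder replicate 2, with 7 of 19 below 0, and 19 of 22 were below 0 without responder replicate 1. Responder libraries lay wholly below non-responder libraries in 5 members (Nid2, Col18a1, Lamb1, Dag1 and Lama3) and wholly above in 1 (Npnt), against 17.8% and 18.8% of all genes.

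Nid2 encodes nidogen-2, a linker between laminin and collagen IV. It had 28.2 and 25.8 CPM in responder libraries, against 53.2 and 78.9 CPM in non-responder libraries. The responder libraries were close to each other and both lay below the lower non-responder library. The counts behind these values were 568 and 493 reads in responder libraries and 1100 and 1757 reads in non-responder libraries. Its log2 fold change was -1.29 (SE 0.22), 2.44-fold lower in responder libraries, with an adjusted p of 0.318 in edgeR. DESeq2 called it (adjusted p = 6.19e-04, 1 of 62 genes called, 0.45%), and so did edgeR with no filter on low counts (adjusted p = 3.17e-07, 212 genes, 0.716%), while limma-voom did not (adjusted p = 0.371). It was also called with any single library left out. The adjusted p was 0.0125 when responder replicate 1 was dropped and 0.021 when responder replicate 2 was, in fits that called 0.459% and 1.2% of all genes. Dropping non-responder replicate 1 gave 0.00216 and dropping non-responder replicate 2 gave 0.00429, in fits that called 0.284% and 3.62%. Those fits share libraries and leave 1 library in a group. Nid2 (ENSMUSG00000021806) spans chr14:19751265-19811787 on mm10, with reads counted over its exons.

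Nid1, which encodes nidogen-1, its paralog with the same linking role, did not share that pattern. It had 123 and 112 CPM in responder libraries and 109 and 132 CPM in non-responder libraries, so the responder values lay between the non-responder values, and its log2 fold change was -0.03 (SE 0.18). Within each library the Nid2 level per length was 0.308 and 0.309 of the Nid1 level in responder libraries, against 0.655 and 0.805 in non-responder libraries. The share of Nid2 in the nidogen signal was thus lower in both responder libraries than in either non-responder library. The difference between the changes of the nidogens was not tested: with 2 libraries against 2 the smallest two-sided exact permutation p is 0.33.

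Fibroblast, leukocyte, macrophage and endothelial markers were mostly lower in responder libraries, as Nid2 was, and their part in the result was not tested. In bulk RNA a marker sum does not tell which cells made the RNA, nor fewer cells of a type from less RNA per cell. Of 13 tested fibroblast markers 12 had a log2 fold change below 0, as did 51.1% of all genes, and 8 were lower at an unadjusted p under 0.05, as were 3.63% of all genes. The 15 markers listed summed to 8640 and 7442 CPM in responder libraries, against 10065 and 16356 CPM in non-responder libraries, most of it Col3a1. Pdgfrb, a receptor of fibroblasts and pericytes, had 107 and 78.4 CPM in responder libraries and 221 and 198 CPM in non-responder libraries. All 10 leukocyte markers were lower, 0 of them at an unadjusted p under 0.05. Their sum was 13.0 and 54.7 CPM in responder libraries, against 52.7 and 140 CPM in non-responder libraries, so the groups overlapped. The 10 macrophage markers were all lower too, again with 0 at an unadjusted p under 0.05. They summed to 15.3 and 84.6 CPM in responder libraries and to 86.7 and 229 CPM in non-responder libraries. Of 5 tested endothelial markers 4 were lower (51.1% of all genes), 2 of them at an unadjusted p under 0.05 (3.63% of all genes). The 14 listed summed to 20.2 and 23.0 CPM in responder libraries, against 33.7 and 40.0 CPM in non-responder libraries. The highest single value among them was 6.35 and 11.6 CPM in responder libraries and 17.8 and 25.5 CPM in non-responder libraries. The endothelial genes Kdr, Tek, Tie1, Vwf and Emcn stayed below 0.4 CPM in every library, and Erg had no read. Of 4 tested pericyte and smooth muscle markers 2 were lower and 2 higher. The 11 listed summed to 108 and 135 CPM in responder libraries and to 68.8 and 116 CPM in non-responder libraries, mostly Cspg4, and Kcnj8 had no read. The 10 markers of fat, Schwann cells and skeletal muscle summed to less than 9 CPM in each library.

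Col18a1, the source of endostatin, was the other member at an unadjusted p under 0.05. It had 88.8 and 116 CPM in responder libraries, against 154 and 165 CPM in non-responder libraries, with no overlap. Its log2 fold change was -0.64 (SE 0.20), 1.55-fold lower, with an adjusted p of 0.674 in edgeR, 0.296 in DESeq2 and 0.129 to 1.0 with a library left out. Col15a1, its closest relative, had 1 and 5 reads in responder libraries and 7 and 14 in non-responder libraries, too few to test. Lamb1 lay only just below, at 618 and 579 CPM in responder libraries against 686 and 670 CPM in non-responder libraries, with a log2 fold change of -0.18 (SE 0.20). Dag1 had 278 and 214 CPM in responder libraries against 301 and 280 CPM in non-responder libraries, at -0.24 (SE 0.21). In the other direction Npnt, or nephronectin, an integrin ligand of epithelial basement membranes, had 9.53 and 8.23 CPM in responder libraries and 6.00 and 7.46 CPM in non-responder libraries, at 0.40 (SE 0.27).

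**Figure D3:**
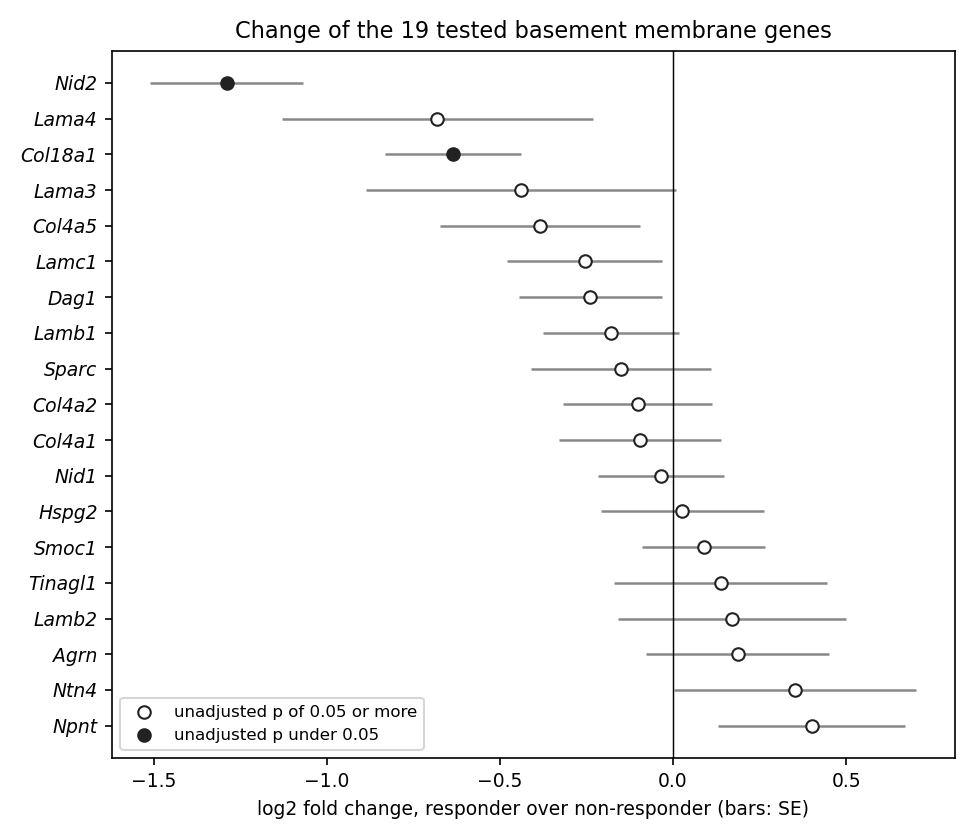
Log2 fold change of the 19 tested genes, responder over non-responder, with bars of 1 SE; filled points have an unadjusted p under 0.05. Nid2 at -1.29 and Col18a1 at -0.64 are the filled points, and none passed after adjustment over all genes.

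**Figure D4:**
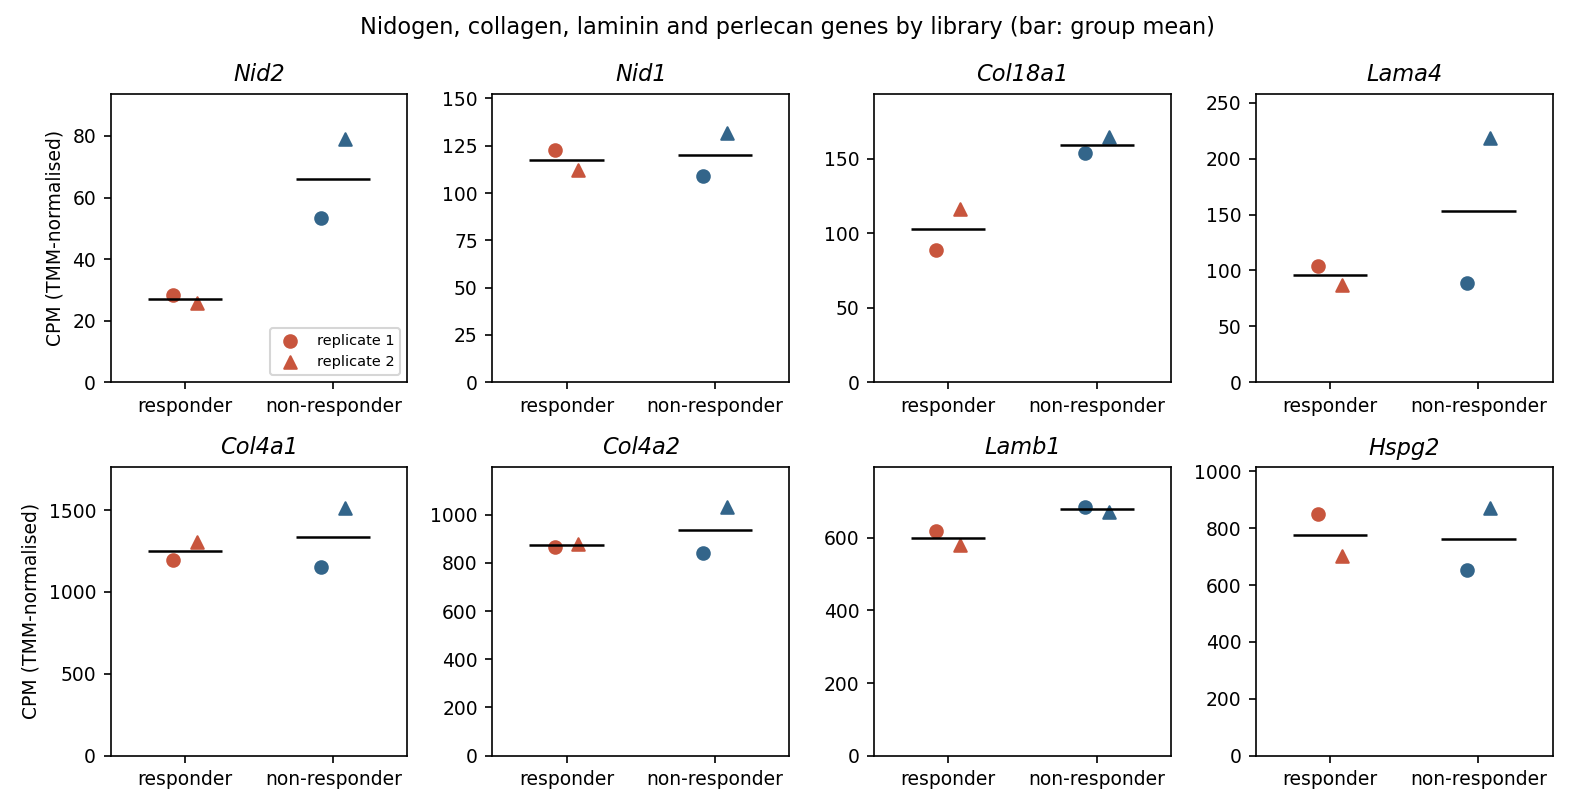
CPM of 8 genes by library, responder left of non-responder, with a bar at each group's mean. Nid2, Col18a1 and Lamb1 do not overlap between groups, Nid1 and Hspg2 do, and the upper non-responder point of Lama4 (218 CPM) is replicate 2.

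None of the other tested members had an unadjusted p under 0.05, and the values of Lama4 and Lamb2 turned on 1 library. Col4a1 had 1194 and 1302 CPM in responder libraries and 1152 and 1515 CPM in non-responder libraries, a log2 fold change of -0.10 (SE 0.23). Col4a2 was at -0.10 (SE 0.22), Lamc1 at -0.25 (SE 0.22), Hspg2 at 0.03 (SE 0.24), Sparc at -0.15 (SE 0.26) and Smoc1 at 0.09 (SE 0.18). Lama4 had 104 and 87.2 CPM in responder libraries and 88.4 and 218 CPM in non-responder libraries, a log2 fold change of -0.68 (SE 0.45). It was called lower without non-responder replicate 1 (-1.19, adjusted p = 0.026) and was at 0.11 without non-responder replicate 2. Lamb2 had 51.2 and 58.9 CPM in responder libraries and 32.4 and 65.4 CPM in non-responder libraries, a log2 fold change of 0.17 (SE 0.33). It was called higher without non-responder replicate 2 (0.76, adjusted p = 0.0339) and was at -0.24 without non-responder replicate 1. Agrn had 216 and 244 CPM in responder libraries and 150 and 254 CPM in non-responder libraries, at 0.19 (SE 0.26). Ntn4, a netrin that binds laminin gamma chains and loosens laminin networks, had 77.1 and 41.7 CPM in responder libraries and 56.4 and 36.7 CPM in non-responder libraries, at 0.35 (SE 0.35). Tinagl1, a matrix protein related to cathepsins, was at 0.14 (SE 0.31) and Col4a5 at -0.38 (SE 0.29).

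Much of this spread lay inside the non-responder group. Non-responder replicate 2 had the highest CPM of the 4 libraries in 11 of the 19 tested members, or 57.9%, against 26.4% of all genes tested. Non-responder replicate 1 had the lowest in 9 of the 19, or 47.4%, against 33.4% of all genes tested. The members highest in replicate 2 included both nidogens, the 3 tested collagen IV genes, Lama4, Lamb2, perlecan, agrin, Sparc and Col18a1. Lamb1, Lamc1, Dag1 and Lama3 were highest in non-responder replicate 1 instead. Leukocyte, macrophage and fibroblast marker sums were also highest in non-responder replicate 2, with values given above, and their part was not tested. Too few reads came from the other 12 members for a test, 0 to 15 in any library. They were Lama1, Lama2, Lama5, Lamb3, Lamc3, Col4a3, Col4a4, Col4a6, Col15a1, Smoc2, and Fras1 and Frem2, whose products bind skin to the underlying tissue in the embryo.

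Receptors of basement membranes were led, by mean level per length, by Itgb1, Sdc2 and Sdc4, at 1218, 886 and 524 TPM. Itgb1, the common integrin beta chain, had 1401 and 1084 CPM in responder libraries and 1700 and 1230 CPM in non-responder libraries. Of 14 tested receptor genes 7 were lower and 7 higher in responder libraries, and 2 lower ones had an unadjusted p under 0.05, where 3.63% of all genes did. Itga7, the alpha chain of a laminin-binding integrin of muscle, had 5.46 and 5.71 CPM in responder libraries, against 14.8 and 12.3 CPM in non-responder libraries (log2 fold change -1.28, SE 0.25, edgeR adjusted p = 0.37). Sdc2, a syndecan that carries heparan sulfate, had 739 and 561 CPM in responder libraries and 1165 and 935 CPM in non-responder libraries (log2 fold change -0.69, SE 0.24, edgeR adjusted p = 0.732). The integrin chain gene Itgb4 of hemidesmosomes had 32.2 and 29.0 CPM in responder libraries and 8.27 and 39.3 CPM in non-responder libraries, so that 1 non-responder library stood low. Without non-responder replicate 1, 11 of the receptor genes were lower.

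Most genes listed for folding, modifying and crosslinking collagens, not collagen IV alone, were well expressed, but Colgalt2 had no read and P4ha3 at most 2 in any library. The highest levels per length were those of P4hb, a subunit of prolyl hydroxylase, Serpinh1, the collagen chaperone, and Plod2, a lysyl hydroxylase, at means of 2574, 1904 and 661 TPM. Serpinh1 had 1314 and 1352 CPM in responder libraries and 1071 and 1308 CPM in non-responder libraries. Of 19 tested genes of this group 15 were lower (51.1% of all genes) at a median log2 fold change of -0.17, and 1, Loxl2, was higher at an unadjusted p under 0.05 (2.57% of all genes). The number lower was 13 with limma-voom and ran from 11 to 16 with a library left out. Loxl2 had 6.25 and 3.78 CPM in responder libraries and 3.10 and 1.98 CPM in non-responder libraries. Pxdn, the peroxidase that forms the sulfilimine crosslink of collagen IV, had 717 and 601 CPM in responder libraries and 878 and 676 CPM in non-responder libraries, at -0.24 (SE 0.23). Lox, a lysyl oxidase, had 285 CPM in responder replicate 1 but 35.2 CPM in responder replicate 2, against 79.7 and 94.0 CPM in non-responder libraries.

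Enzymes that cut basement membranes were mostly lower in responder libraries. Of 13 tested 12 had a log2 fold change below 0 (51.1% of all genes), at a median of -0.35, and 5 were lower at an unadjusted p under 0.05 (3.63% of all genes), with none past adjustment. Fibroblast markers were mostly lower too, and leukocyte and macrophage markers all were, with 0 of either at an unadjusted p under 0.05. The sums are given above, and the part of these markers was not tested. Mmp2, a gelatinase that digests collagen IV, had 337 and 317 CPM in responder libraries and 497 and 606 CPM in non-responder libraries. Mmp9, the other gelatinase, had 183 and 289 CPM in responder libraries and 341 and 396 CPM in non-responder libraries. Bmp1, a protease that processes procollagens and laminin chains, had 117 and 111 CPM in responder libraries and 159 and 174 CPM in non-responder libraries. Mmp19 had 7.35 and 6.87 CPM in responder libraries and 12.1 and 15.5 CPM in non-responder libraries. Plau, or urokinase, had 0.149 and 0.682 CPM in responder libraries and 3.58 and 4.0 CPM in non-responder libraries. Ctsl, a lysosomal cathepsin with the highest level per length of the list, was the tested gene above 0, with 1547 and 1777 CPM in responder libraries and 1565 and 1666 CPM in non-responder libraries. The membrane protease Mmp14 overlapped between groups, at -0.16 (SE 0.21).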

How the data were processed

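Polyadenylated RNA of sorted tumor cells was sequenced in 4 libraries, grouped by their titles. Reads were aligned with STAR to mm10 (GRCm38), per the submitters' processing notes, with the version not given in the sources used here, and counted with featureCounts 1.6.1, reverse-stranded (setting 2), on Ensembl release 91, per the file headers. Raw counts per gene were deposited without normalization or multi-mapping reads, beside each gene's summed exon length. Of 53379 identifiers 53274 matched a symbol, and all 31 members matched.

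Computed here were TMM-normalised CPM, TPM from the exon lengths, and edgeR 4.0.16 quasi-likelihood tests (R 4.3.3) after filterByExpr with a minimum count of 10, adjusted over all genes by Benjamini-Hochberg at 0.05. The SE is the size of the log2 fold change over the square root of F. The test was checked on simulated data. Alternatives used DESeq2 1.42.0, limma 3.58.1, other scalings and filters, a replicate block and each library left out.

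Members and lists were chosen with earlier results of these data known. All members were accounted for. Values per library went to those with a mean of at least 20 CPM, those at an unadjusted p under 0.05 and the leading chain of each family, and from other lists to the leading genes. Npnt, Col4a5, the untested laminin chains, Col15a1, Itgb4, Lox, Pxdn, Mmp14, Pdgfrb and the genes under other observations were picked once their values had been seen. Ntn3, listed beforehand, had no row under that name.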

Additional observations from a re-analysis of the deposited data

How the results depend on the processing

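Directions of the 19 tested members held under every other scaling, filter and test run with all 4 libraries, though the stricter filter removed Lama3. With adjustment over all genes, no member was called by RLE, upper-quartile or library-size scaling, limma-voom, a filter of at least 5 CPM in 2 libraries or the replicate block, and Nid2 alone was called by DESeq2 and with no low-count filter (1 member each). All genes called numbered 62 with DESeq2, 212 with no filter, 32 with the replicate block and 0 otherwise. With no filter 4 of 30 members had an unadjusted p under 0.05, against 2 of 19 in the main fit. The share of all genes at that level is not given for the fit with no filter, so its count describes the members only. Leaving out a library gave 41 to 516 genes called, 1 to 2 members called, 2 to 5 members at an unadjusted p under 0.05, 7 to 19 members below 0 and a median of -0.24 to 0.075. The same fits gave 6 to 11 receptor genes, 11 to 16 collagen assembly genes, 10 to 14 enzyme genes and 9 to 16 other matrix genes below 0.

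The direction of 12 members turned when a library was left out, with log2 fold changes of -0.71 to 0.045 for Col4a5, -0.11 to 0.39 for Tinagl1, -0.16 to 0.25 for Hspg2, -0.14 to 0.61 for Agrn, -1.19 to 0.11 for Lama4, -0.16 to 0.73 for Ntn4, -0.27 to 0.11 for Col4a1, -0.24 to 0.052 for Col4a2, -0.24 to 0.76 for Lamb2, -0.40 to 0.15 for Sparc, -0.16 to 0.11 for Nid1 and -0.011 to 0.18 for Smoc1. Those of Nid2 ran from -1.54 to -0.98 and of Col18a1 from -0.84 to -0.46. A group left with 1 library borrows its spread from the other.

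The labels do not say whether same-numbered libraries share a day or batch. They deviated together from their group means (r = 0.388 across genes, which are not independent), and under the replicate block Nid2 had an adjusted p = 0.0686. Without length correction the mean share of Lamb1 was 92.4%, of Col4a1 58.4% and of Col4a2 41.0%, by construction. At this depth 12 of the 31 members had too few reads to test.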

Other observations

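Other matrix genes that occur in or beside basement membranes showed a few separate patterns. Of 21 tested genes of this list 13 were lower (51.1% of all genes) and 8 higher in responder libraries, with a median of -0.09 on the log2 scale. At an unadjusted p under 0.05 in edgeR, 1 was lower and 1 higher (3.63% and 2.57% of all genes). With a library left out 9 to 16 were lower. Matn2, a matrilin of basement membranes, had 538 and 382 CPM in responder libraries, against 831 and 776 CPM in non-responder libraries (log2 fold change -0.81, SE 0.23, edgeR adjusted p = 0.631). Col7a1, the anchoring fibril collagen of skin, had 310 and 239 CPM in responder libraries and 323 and 234 CPM in non-responder libraries. Timp3, a matrix-bound protease inhibitor, had 12.1 and 1.68 CPM in responder libraries, against 0.774 and 1.12 CPM in non-responder libraries, so its difference rests on responder replicate 1.

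A few genes of this list differed more by replicate number than by group. Fbln2, or fibulin-2, had 295 and 74.2 CPM in responder libraries and 187 and 77.5 CPM in non-responder libraries. Thbs1, or thrombospondin-1, had 72.9 and 28.7 CPM in responder libraries and 75.2 and 25.5 CPM in non-responder libraries. In both genes replicate 1 was higher than replicate 2 in each group. The labels do not say whether a replicate number marks a shared day or batch.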
